A study of Mus musculus with 6 samples.

Results

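The genes described here are the fibroblast growth factor (FGF) receptors Fgfr1, Fgfr2 and Fgfr3 and 7 further genes. The 7 belong to the signalling downstream of the receptors through the extracellular signal-regulated kinase ERK. They comprise the feedback inhibitors Spry1, Spry2, Spry4, Spred1, Dusp4 and Dusp6 and the transcription factor Etv5. Members were all probe sets annotated to exactly 1 gene, that gene being one of these 10, which gave 28 of the 34945 single-gene probe sets on the array, for 10 of 18193 genes. RNA of neural stem cells from the ventricular-subventricular zone of adult mice was measured on 6 one-colour arrays. Quiescent cells (3 arrays) carried GFP driven by the GFAP promoter and surface CD133, and lacked CD24. Activated cells (3 arrays) were sorted on those 3 features with EGF receptor (EGFR) at the surface in addition. The reporter marks cells in which the GFAP promoter is or was active, which includes astrocytes, and the sources used here do not give the number of animals per array, their strain or an age beyond adult. The labels call the arrays of a group biological replicates, and their small number limits the precision of every value.

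FGF receptors are tyrosine kinases at the cell surface that, on binding FGF and heparan sulfate, pass a signal through the adaptor Frs2 and the Ras-Raf-MEK cascade to ERK. ERK signalling induces its own inhibitors: Sprouty and Spred proteins act upstream at the level of Ras and Raf, and the dual-specificity phosphatases Dusp4 and Dusp6 remove phosphate from ERK itself. The ETS factor Etv5 is a transcriptional effector of the same pathway, and its RNA, with that of Spry and Dusp genes, is often used as a readout of FGF and ERK activity. In the adult subventricular zone FGF and EGF are the classical mitogens of neural stem cells in culture.

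Each level is a MAS5 signal in log2 units. A difference is the activated mean less the quiescent mean in those units, ± SE from the limma fit over all 11575 tested genes, with n = 3 arrays per group. A gene was tested where its brightest probe set averaged at least 6.02, and a call needed an adjusted p (Benjamini-Hochberg) below 0.05. Of the 10 members 9 were tested, each with both group means above that level. None was higher in activated cells, 4 were lower (Fgfr1, Fgfr2, Fgfr3 and Spry4) and 5 did not pass. Among all tested genes 34.9% were called, 17.6% lower and 17.3% higher. The arrays of the groups did not overlap for those 4 members, against 50.7% of all tested genes in either direction and 25.5% with the activated arrays lower. The median difference was -0.67 over the 9 members and 0.01 over all tested genes. The member median is the value of the brightest Spred1 probe set, and the other Spred1 probe sets, given below, read further below 0.

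The 3 FGF receptors fell together. Fgfr1 read 11.98, 11.96 and 11.41 on quiescent arrays 1, 2 and 3 and 8.98, 9.23 and 9.89 on activated arrays 1, 2 and 3. Every activated array lay below every quiescent one, and Fgfr1 fell by 2.42 ± 0.33, or 5.34-fold (adjusted p = 0.00041). Fgfr2, the receptor with known roles in glia, read 13.58, 13.68 and 12.73 on quiescent and 10.05, 10.19 and 10.46 on activated arrays. The groups again did not overlap, and Fgfr2 fell by 3.10 ± 0.30, or 8.55-fold (adjusted p = 7.83e-05). Fgfr3, a receptor characteristic of astrocytes and radial glia, read 13.03, 12.87 and 12.56 on quiescent and 9.42, 9.84 and 9.81 on activated arrays. The arrays of a group lay close together, with SD 0.24 in both groups, and Fgfr3 fell by 3.13 ± 0.27, or 8.74-fold (adjusted p = 4.56e-05). On all 6 arrays each receptor stayed above the array background, which ranged from 5.45 to 6.10 on quiescent and from 4.52 to 4.67 on activated arrays, so receptor RNA was still measured in activated cells. A sign of RNA quality moved with the groups as well: the 3' less 5' signal of the Gapdh control was 1.54 to 2.59 on quiescent and 1.19 to 1.51 on activated arrays, without overlap. Its part in the receptor differences was not tested.

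**Figure D1:**
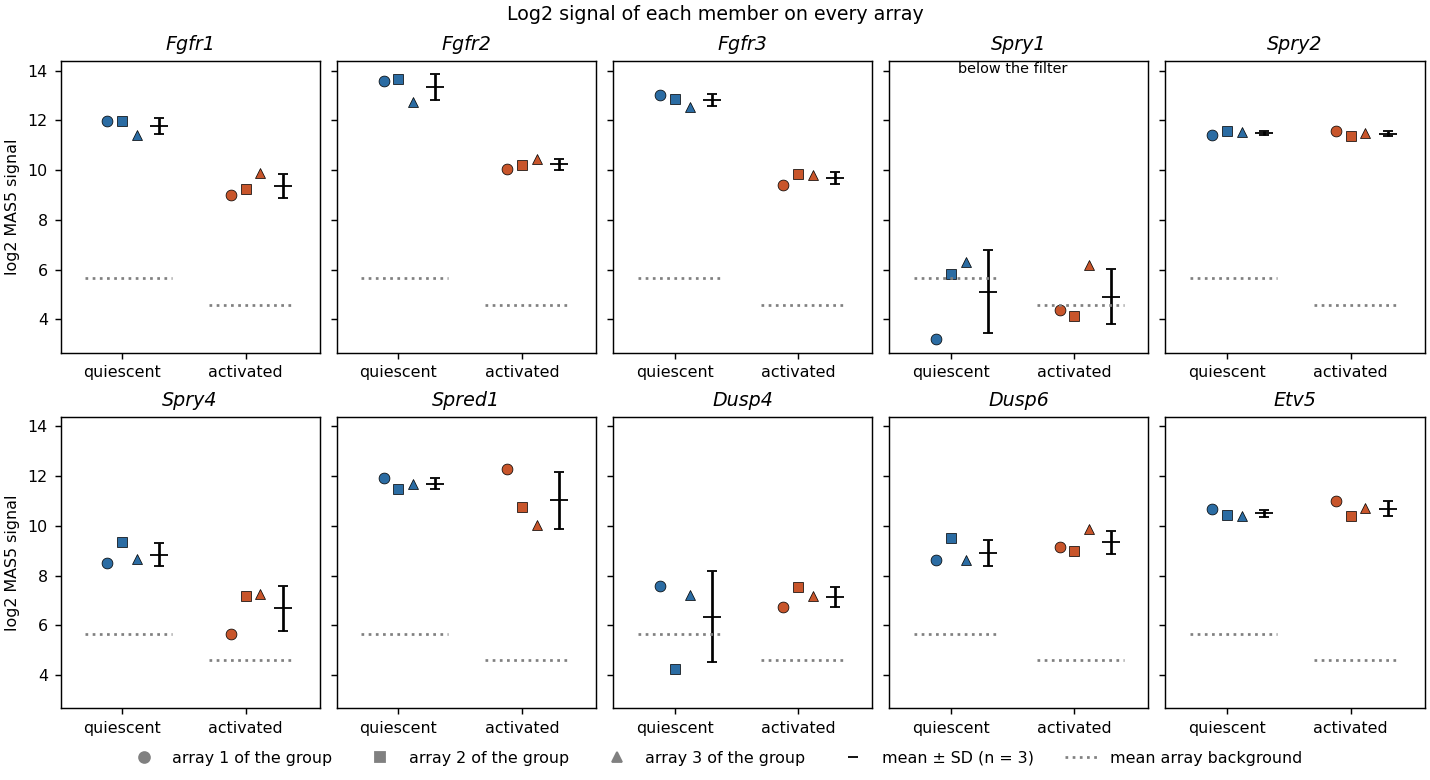
Log2 MAS5 signal (vertical axis) of the probe set used for each of the 10 members on the 3 quiescent and 3 activated arrays, with the group mean ± SD beside the points and the mean array background as a dotted line. The activated arrays lie below the quiescent ones for Fgfr1, Fgfr2, Fgfr3 and Spry4, and the groups overlap for the remaining 6 genes.

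The further probe sets of the receptors gave differences of the same sign. Each probe set was also tested by itself in a limma fit over 22607 single-gene probe sets, of which 31.9% were called, 16.3% lower and 15.6% higher, and 12 of the 23 tested member probe sets were called lower and 0 higher. For Fgfr1 the next brightest probe set fell by 1.76 (adjusted p = 0.0114) and the dimmest differed by -1.33 (adjusted p = 0.114, 95% interval -2.66 to -0.01). In the dimmest the groups overlapped, quiescent array 1 reading 7.61 and activated array 3 reading 7.97. Without quiescent array 1 its difference was -1.90 (adjusted p = 0.0279). The second Fgfr2 probe set fell by 2.63 (adjusted p = 0.000328), and the dimmest, too dim to be tested, differed by -1.93 with 2 activated arrays at background. The second Fgfr3 probe set fell by 2.23 (adjusted p = 0.00216). With arrays scaled to the hybridisation controls neither it (-1.59, adjusted p = 0.0532) nor the next brightest Fgfr1 probe set (-1.12, adjusted p = 0.142) was called, and the latter was not called after median centring either (-1.21, adjusted p = 0.0538). The probe sets of a gene share the same RNA and are not replicates of one another. They may match different transcript forms, which the annotation used here does not resolve.

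**Figure D2:**
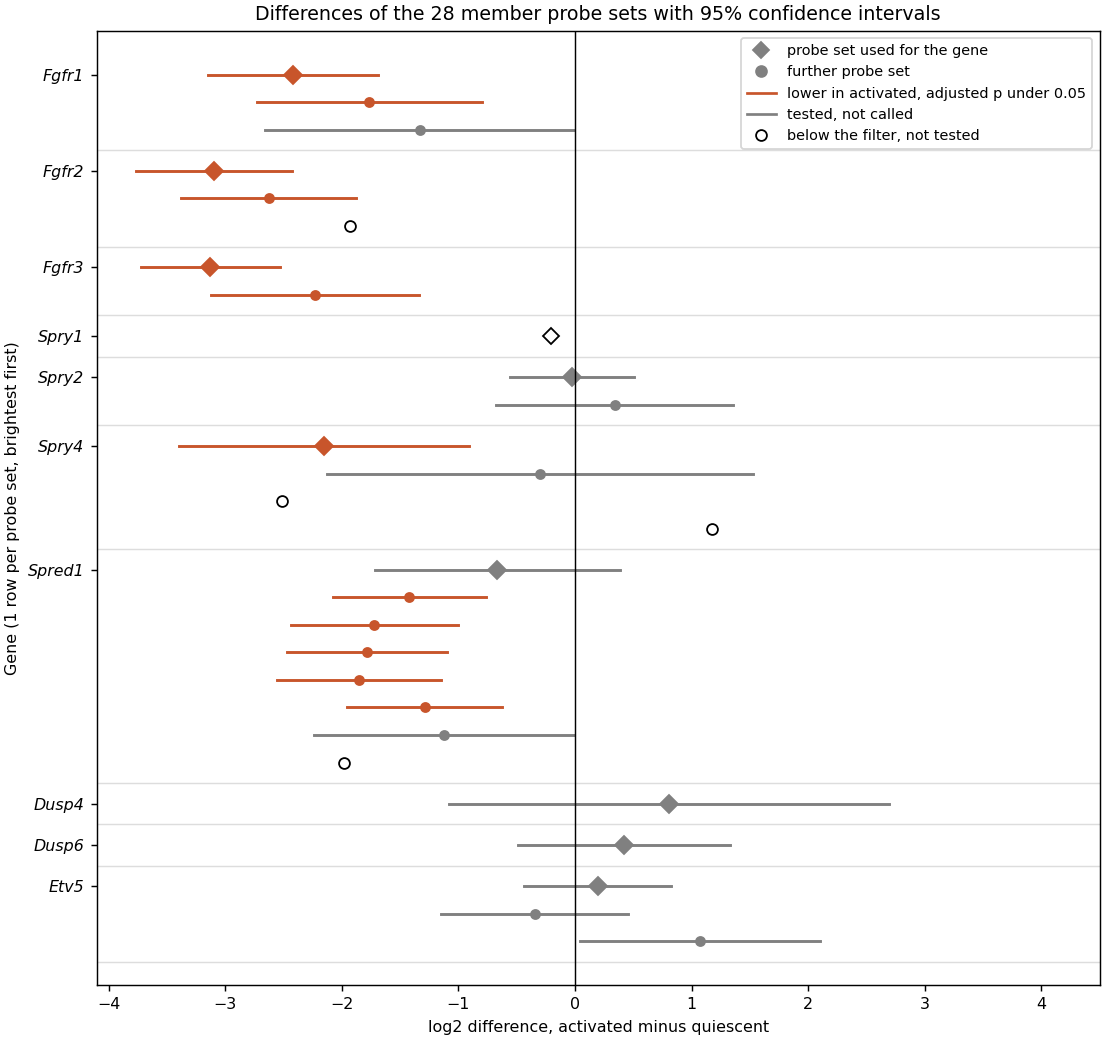
Log2 difference, activated minus quiescent (horizontal axis), of each of the 28 member probe sets, with 95% confidence intervals from the limma fit for the 23 tested and open symbols for the 5 below the filter. All 8 receptor probe sets and all 8 Spred1 probe sets lie below 0, while those of Spry2, Spry4 and Etv5 lie on both sides.

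Within an array, the signal of Fgfr1 relative to Fgfr2 was higher in activated cells by 0.68 (SD 0.20 in quiescent and 0.26 in activated cells). Relative to Fgfr3 it was higher by 0.71 (SD 0.12 and 0.36). In both cases the 3 arrays of one group lay apart from those of the other. Fgfr2 relative to Fgfr3 differed by 0.03 between groups, with overlapping arrays. In two-sided exact permutation tests over arrays the p-values were 0.1, 0.1 and 0.9, or 0.2, 0.2 and 0.9 adjusted over the 6 receptor and Sprouty pairs compared. A p of 0.1 is the smallest that 3 arrays against 3 can give. With probe sets averaged, Fgfr1 relative to Fgfr2 differed by 0.71 (exact permutation p = 0.4). The other values rest on the brightest probe set of each gene. That of Fgfr1 fell by 2.42, while the second probe sets of Fgfr2 and Fgfr3 fell by 2.63 and 2.23. Pairs with those second probe sets were not tested.

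Over the 6 arrays the genes most like Fgfr1 by Pearson correlation of log2 signals were Greb1l (r = 0.999), Rmst (r = 0.997) and Gsta4 (r = 0.997). Those most like Fgfr2 were Rfx4 (r = 0.998), Pygb (r = 0.997) and Dab1 (r = 0.997), and those most like Fgfr3 were Ptn (r = 0.999), the bicarbonate cotransporter Slc4a4 (r = 0.999) and Togaram2 (r = 0.998). Such values are common here, since the gap between groups dominates them: 10.8%, 11.8% and 12.4% of the tested genes reached 0.9 with Fgfr1, Fgfr2 and Fgfr3.

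Of the RefSeq promoter table (GRCm38.p6), windows of 250 bases before to 50 after a start were matched for 7 of the 10 members, and Fgfr1, Spry4 and Dusp4 were not matched. The windows of Fgfr2 and Fgfr3 are shown because these receptors fell by the most, and that of Spry2 because it did not pass the test and was the only member window with a match. The Fgfr2 window lies at chr7:130266759-130267058 on the minus strand, the first of the Fgfr3 windows at chr5:33721474-33721773 on the plus strand and the Spry2 window at chr14:105896770-105897069 on the minus strand. Capitals mark the ETS core searched.
Fgfr2: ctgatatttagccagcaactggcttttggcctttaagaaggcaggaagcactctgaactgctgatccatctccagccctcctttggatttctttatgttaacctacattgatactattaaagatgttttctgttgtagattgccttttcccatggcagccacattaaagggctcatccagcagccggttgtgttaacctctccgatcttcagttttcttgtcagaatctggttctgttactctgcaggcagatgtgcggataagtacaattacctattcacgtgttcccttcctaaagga
Fgfr3: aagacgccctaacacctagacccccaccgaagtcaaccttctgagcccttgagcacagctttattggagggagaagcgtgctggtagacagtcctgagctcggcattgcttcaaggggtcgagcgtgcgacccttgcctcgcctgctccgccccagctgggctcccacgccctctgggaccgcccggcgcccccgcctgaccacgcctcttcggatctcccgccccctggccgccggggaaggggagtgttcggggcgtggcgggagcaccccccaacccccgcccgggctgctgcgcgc
Spry2: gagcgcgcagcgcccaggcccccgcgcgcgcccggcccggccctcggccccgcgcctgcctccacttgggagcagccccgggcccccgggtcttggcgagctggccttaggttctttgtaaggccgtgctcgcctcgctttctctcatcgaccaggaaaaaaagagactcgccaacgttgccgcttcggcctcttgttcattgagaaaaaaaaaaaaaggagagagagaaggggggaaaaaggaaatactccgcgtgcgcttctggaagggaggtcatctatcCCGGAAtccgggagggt

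The windows were searched on both strands for the ETS core CCGGAA, which 14.9% of all 32851 windows hold, and for the AP-1 site TGANTCA, held by 7.81%. The motifs share no overlapping match in the member windows. The Spry2 window held 1 ETS core, beginning at base 284 of the window, and the other 8 member windows held neither motif. The receptors that fell alike differ in base composition at these starts: the Fgfr2 window is 43.7% G and C with 4 CpG dinucleotides, and the Fgfr3 window shown is 69.7% with 26. Over all windows the medians are 52.7% and 7. A match is a description of letters, and which start the sorted cells use was not measured.

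The Sprouty genes divided. Spry2 read 11.40, 11.58 and 11.51 on quiescent and 11.57, 11.35 and 11.48 on activated arrays. This was the tightest set of values among the members, and the difference was -0.03 ± 0.24 with a 95% interval of -0.56 to 0.50 (adjusted p = 0.936). A change of the size seen in the receptors lies outside that interval. The second Spry2 probe set differed by 0.34 (adjusted p = 0.602).

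Spry4 read 8.51, 9.37 and 8.67 on quiescent and 5.66, 7.17 and 7.27 on activated arrays. The groups did not overlap, and Spry4 fell by 2.15 ± 0.56, or 4.44-fold (adjusted p = 0.0139). The call did not hold without quiescent array 2 (-1.89, adjusted p = 0.0575), with arrays scaled to the spiked hybridisation controls (-1.51, adjusted p = 0.102) or with its probe sets averaged (-0.95, adjusted p = 0.348). Its 3 dimmer probe sets differed by -0.30, -2.51 and 1.17 and overlapped between groups. Of these only the first was tested (adjusted p = 0.807). The second was at or below background on 1 quiescent and 2 activated arrays and the third on 2 quiescent arrays. These 2 were too dim to be compared, and the fall rests on 1 of 4 probe sets.

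Within arrays, Spry2 relative to Spry4 was higher by 2.12 in activated cells (SD 0.38 in quiescent and 0.99 in activated cells), with no overlap between groups (exact permutation p = 0.1, adjusted p = 0.2). With probe sets averaged this was 1.10 (exact permutation p = 0.4). Spry1 was not bright enough to be tested. It read 3.20, 5.82 and 6.32 on quiescent and 4.40, 4.15 and 6.18 on activated arrays, and 1 quiescent and 2 activated arrays were at or below background. Its level therefore could not be compared between the groups. The pairs of Spry1 with Spry2 and with Spry4 count among the 6 adjusted over and carry the same limit.

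Spred1, which binds neurofibromin and restrains Ras, gave readings that depended on the probe set. The brightest of its 8 probe sets read 11.94, 11.48 and 11.67 on quiescent and 12.28, 10.75 and 10.06 on activated arrays. Activated array 1 was above every quiescent array, the groups overlapped, and the difference was -0.67 ± 0.48 (adjusted p = 0.299, 95% interval -1.72 to 0.39). On the same array the other 7 probe sets did not share that high reading. All 7 differed by values below 0, from -1.99 to -1.12, 6 of the 8 had every activated array below every quiescent one, and 5 of the 7 tested were called lower. The largest of those called fell by 1.85 (adjusted p = 0.0016) and the smallest by 1.29 (adjusted p = 0.00847).

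The mean of the 8 probe sets fell by 1.48 ± 0.25 (adjusted p = 0.00142). Without activated array 1 the brightest probe set differed by -1.29 (adjusted p = 0.0259). With arrays scaled to the hybridisation controls none of the 7 tested Spred1 probe sets was called, with differences from -1.21 to -0.02.

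**Figure D3:**
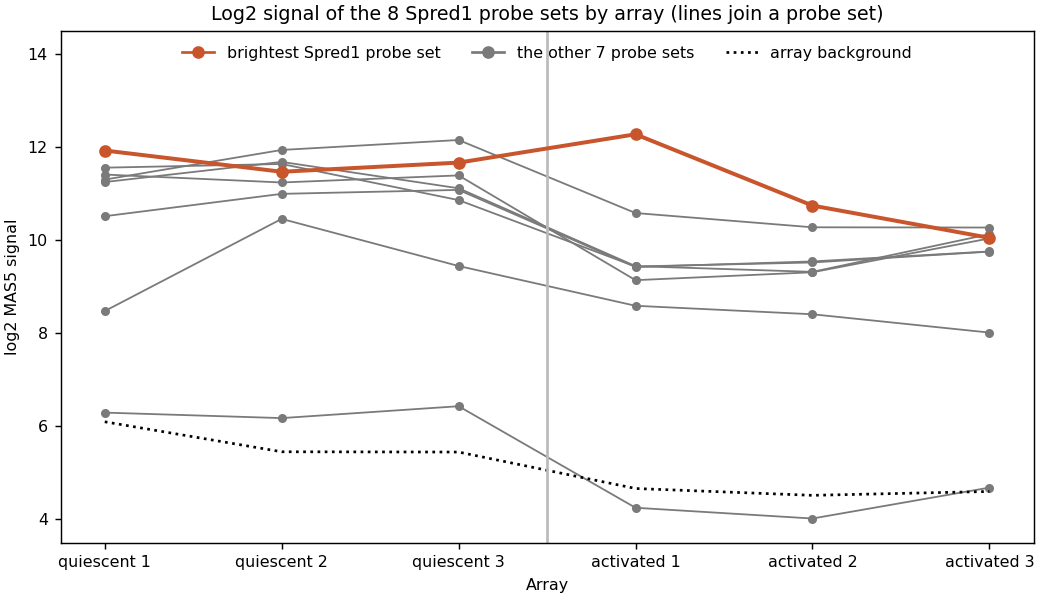
Log2 MAS5 signal (vertical axis) of the 8 Spred1 probe sets on each array, with the array background dotted. The brightest probe set reads 12.28 on activated array 1, where the others are lower than on the quiescent arrays or within their range.

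Of the phosphatases, Dusp6, the cytoplasmic phosphatase selective for ERK, read 8.63, 9.51 and 8.62 on quiescent and 9.14, 9.00 and 9.87 on activated arrays. The groups overlapped and the difference was 0.42 ± 0.41 (adjusted p = 0.453, 95% interval -0.50 to 1.34). Dusp4, the nuclear phosphatase induced by ERK, read 7.59, 4.25 and 7.21 on quiescent and 6.74, 7.55 and 7.18 on activated arrays. Quiescent array 2 stood apart, at background, and the difference of 0.80 ± 0.85 (adjusted p = 0.483, 95% interval -1.07 to 2.68) turned to -0.25 without it. Each phosphatase was represented by 1 probe set. These intervals exclude a fall of the size of Fgfr2 or Fgfr3 for both genes, and include a rise of 2-fold.

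Etv5 read 10.67, 10.42 and 10.42 on quiescent and 10.99, 10.39 and 10.72 on activated arrays. The groups overlapped and the difference was 0.19 ± 0.29 (adjusted p = 0.621, 95% interval -0.44 to 0.83). Its 3 probe sets did not share a direction. The second differed by -0.35 (adjusted p = 0.492), and the dimmest by 1.07, with every activated array above every quiescent one (adjusted p = 0.103). After centring each array on its median the dimmest was higher by 1.63 (adjusted p = 0.0221).

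Other genes of FGF and ERK signalling were taken from lists of 97 genes, of which 88 were matched to a single-gene probe set and 58 were tested. Of these 12 rose and 10 fell, with a median difference of -0.29. All tested genes gave 17.3% higher and 17.6% lower, and no count here or per list was tested against those shares. Among the 54 pathway genes with both group means above the filter, 11 rose and 8 fell. The higher count was 6 without activated array 1 and 7 without activated array 2, and the lower count 6 without quiescent array 1.

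Of 20 FGF family genes only 6 were bright enough to be tested, and 2 fell. Fgf1, a ligand that can bind all FGF receptors, read 9.80, 9.74 and 9.88 on quiescent and 4.88, 4.91 and 3.51 on activated arrays. It was at least 32.2-fold lower in activated cells (adjusted p = 0.000106). This bound sets the quiescent mean against the larger of signal and background on each activated array. Fgf2, the ligand used to grow neural stem cells, read 8.75, 9.05 and 7.95 on quiescent and 2.90, 5.65 and 3.95 on activated arrays, and was at least 12.2-fold lower (adjusted p = 0.00168). Both ligands passed the filter only through the quiescent group, so their calls say nothing of the family. Of the intracellular FGF homologous factors, Fgf11, Fgf12 and Fgf13 differed by -1.31 (adjusted p = 0.191), 0.45 (adjusted p = 0.489) and 0.15 (adjusted p = 0.766). Fgf14, too dim on average to be tested, read 8.24, 8.57 and 7.17 on quiescent and 6.79, 0.68 and 4.02 on activated arrays, at least 6.46-fold lower with no overlap.

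Among further receptors and co-receptors 2 of 4 tested genes fell and none rose. Fgfrl1, an FGF receptor that lacks the kinase domain, fell by 1.87 ± 0.32 (adjusted p = 0.00143), and Flrt1, a transmembrane protein that interacts with FGF receptors, by 3.23 ± 0.32 (adjusted p = 8.48e-05). Fgfr4 was not bright enough to be tested, with group means of 4.94 in quiescent and 5.09 in activated cells.

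In the cascade from adaptors to ERK, 3 of 16 tested genes rose and 2 fell. The docking protein Gab2 was 1.48 ± 0.31 higher (adjusted p = 0.00472), and Nras 1.20 ± 0.26 higher (adjusted p = 0.00575). Gab2 was not called with its probe sets averaged (adjusted p = 0.0859), nor Nras without probe sets that may match several transcripts (adjusted p = 0.0847). Gab1 fell by 1.34 ± 0.37 (adjusted p = 0.0177) and the ERK kinase gene Map2k1 by 0.98 ± 0.30 (adjusted p = 0.0273). The Gab1 call was lost without quiescent array 1 (adjusted p = 0.0501), activated array 1 (0.0571) or activated array 3 (0.0591). That of Map2k1 was lost without quiescent array 3 (adjusted p = 0.0508) or activated array 1, 2 or 3 (0.0868, 0.0629 and 0.0744). With arrays scaled to the hybridisation controls neither was called (adjusted p = 0.268 and 0.585), nor was Errfi1 (0.275). After median centring Gab1, Map2k1 and Errfi1 were not called either (adjusted p = 0.147, 0.377 and 0.194).

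Of 15 other tested inhibitors 1 rose and 3 fell. Pea15a, which holds ERK in the cytoplasm, fell by 1.87 ± 0.28 (adjusted p = 0.000683). Errfi1, an inhibitor of the EGF receptor, fell by 1.32 ± 0.38 (adjusted p = 0.0216), and its call was lost without quiescent array 1 (adjusted p = 0.0629), activated array 1 (0.0753) or activated array 2 (0.0535). With its probe sets averaged Errfi1 was not called either (adjusted p = 0.147). The phosphatase Dusp1, an immediate early gene, was 1.05 ± 0.36 higher (adjusted p = 0.0457). Its call was lost without quiescent array 2 or 3 (adjusted p = 0.0839 and 0.0896) or activated array 1 or 2 (0.149 and 0.167). It was also lost with quantile normalization (adjusted p = 0.0608), without the filter (0.0566) and without the intensity trend in eBayes (0.0872). Spred2, a relative of Spred1, differed by -0.10 ± 0.30 (adjusted p = 0.821).

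Transcription factors and other ERK targets moved both ways, 8 of 17 tested genes rising and 1 falling. Ier2, one of the 8, passed the filter only through the activated group. Fos read 6.52, 8.22 and 8.97 on quiescent and 12.77, 12.89 and 11.79 on activated arrays, a rise of 4.58 ± 0.57 (adjusted p = 0.000236). Egr1, like Fos an immediate early gene, rose by 3.87 ± 0.29 (adjusted p = 3.25e-05). The fall was that of Etv4, an ETS factor of the same subfamily as Etv5, which read 8.82, 8.59 and 8.49 on quiescent and 6.79, 6.67 and 5.32 on activated arrays and fell by 2.37 ± 0.55 (adjusted p = 0.00752). Fos and Egr1 rose on arrays where the receptors fell and where Dusp6, Spry2 and Etv5 did not pass the test, and the differences between these responses were not tested.

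**Figure D4:**
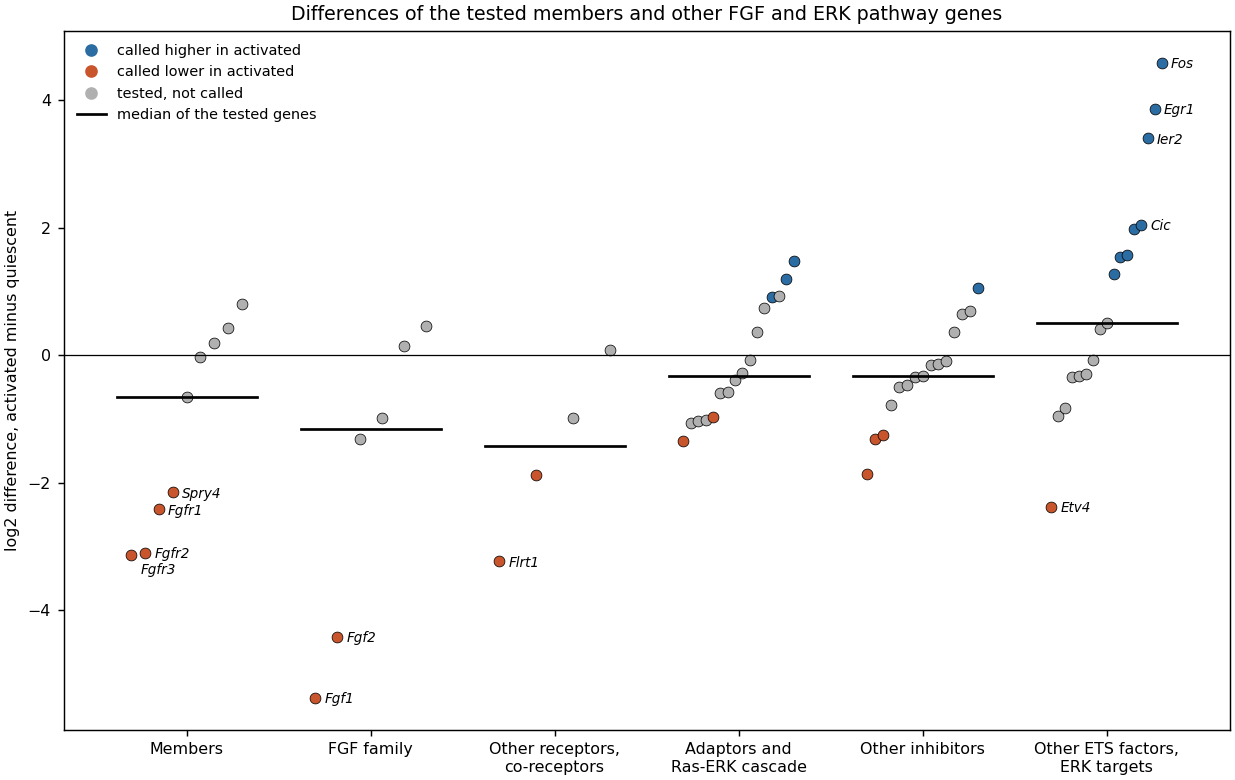
Log2 difference, activated minus quiescent (vertical axis), of the 9 tested members and the 58 tested genes of 5 lists, each point 1 gene, coloured by call, with the list median as a bar. Genes called with a difference of at least 2 are named: Fgf1, Fgf2, Flrt1, Fgfr3 and Fgfr2 lie lowest, and Fos and Egr1 highest.

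Egfr, whose protein defined the sort, was 2.11 ± 0.24 higher in activated cells (adjusted p = 0.000153), which checks the labels and is no finding. Cd24a, whose protein both sorts selected against, was 4.13 ± 0.50 higher in activated cells (adjusted p = 0.000223), with group means of 9.26 and 13.39. Of the genes behind the shared positive criteria, Gfap was lower by 18.2-fold (adjusted p = 0.000444) and Prom1, which encodes CD133, by 2.33-fold (adjusted p = 0.0133). Surface protein, on which the cells were sorted, is not part of these array data. The stem cell and astrocyte markers were measured in both groups, with none of 11 at background on all arrays of a group, but 8 were lower in activated cells and 2 higher. Neuroblast markers were higher in 6 of 7 cases. Several markers of other cell types were lower in activated cells: 8 of 8 tested for mature oligodendrocytes, 3 of 4 for endothelial cells, 3 of 3 for pericytes and 2 of 3 for ependymal cells. Of these 16 genes 10 passed the filter only through the quiescent group, so their count is no measure of the lists. In other lists 1 of 5 tested oligodendrocyte progenitor markers and 1 of 3 mature neuron markers were called higher, and none lower. That neuron marker passed the filter only through the activated group. Of the progenitor genes tested and not called, Cspg4, Sox10 and Olig1 differed by -2.79, -1.66 and -0.08 and Pdgfra by 1.40. Of the neuron genes, Gad1 differed by -0.24 and Snap25 by 1.13. Too dim to be tested were Gpr17 (-4.61) and the neuron genes Syt1 (-2.50), Nefl (-2.57) and Slc17a7 (-0.84). Their lists therefore cannot be said to fall or to hold. The 1 microglial gene tested, Csf1r, differed by -1.28 (adjusted p = 0.132). Summed linear signals, in quiescent against activated arrays, were 20765 to 78260 against 2358 to 6080 for 8 mature oligodendrocyte genes and 1280 to 3869 against 165 to 249.5 for 8 endothelial genes. They were 4508 to 8158 against 170.4 to 535.6 for 7 pericyte genes, 1394 to 1641 against 199.0 to 304.6 for 7 ependymal genes and 335 to 695 against 141 to 178 for 8 microglial genes. Listed at 0 on an activated array were the pericyte gene Abcc9 and the microglial gene C1qc, and the pericyte gene Des and the microglial genes Aif1, C1qa and C1qc were at background on all 6 arrays.

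The oligodendrocyte sum was highest on quiescent array 3, where the brightest probe sets of Fgfr1, Fgfr2 and Fgfr3 each had their lowest quiescent value. Further receptor probe sets did not share this. The next brightest of Fgfr1 (11.07) and the second of Fgfr3 (11.26) had their highest quiescent value on quiescent array 3. The second Fgfr2 probe set (12.48) was not at its lowest there. The endothelial, pericyte, ependymal and stem cell sums were lowest on that array. The part of other cell types in the receptor differences was not tested, and in sorted populations fewer cells of a type and less RNA per cell cannot be told apart.

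Differences are relative to the deposited scaling. The hybridisation controls averaged 14.0 to 14.9 on quiescent and 13.6 to 13.7 on activated arrays. Scaling to them moved the median of all genes to 0.66 and gave 76.4% of called genes as higher, against 49.6% with the deposited scaling. Centring on the array median moved it to 0.57, with 74.8% higher. Under these the falls were 1.77 and 1.86 for Fgfr1, 2.45 and 2.54 for Fgfr2 and 2.48 and 2.57 for Fgfr3, each still called, whereas Spry2 differed by 0.62 and 0.53.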

How the data were processed

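RNA from miRNeasy columns was amplified with a Nugen Pico kit and biotinylated, per the labels. The authors deposited log2 signals from MAS5, as their processing notes state, with its version, detection calls and build unstated in the sources used here. Values were used as deposited, with 64 control probe sets left out. Symbols were updated through RefSeq, and the brightest probe set stood for a gene. The filter was the 40th percentile of probe set means. Groups, from the sample titles, were compared in limma 3.58.1 (lmFit, then eBayes with an intensity trend) under R 4.3.3. Intervals are 95%. Background was the 95th percentile of 27 bacterial control probe sets. Tested on simulated data for this comparison, with 11575 genes of which 200 were changed, the calculation recovered 2.99% of log2 changes of 1, 41.8% of 2 and 72.7% of 4. In the real comparison 34.9% of genes were called. The adjustment was therefore stricter in the simulation, and these rates do not give the power of the real comparison. Members and lists were chosen with earlier results of these data known. Named were the members, per pathway list up to 2 called genes in each direction with the largest difference, Egfr, and the 3 genes most correlated with each receptor. Fgf11 to Fgf14, Fgfr4, Spred2, Csf1r and the oligodendrocyte progenitor and mature neuron markers given by name were named after their values were seen. Alternatives were other scalings, filters, low-value handling, probe set choices and eBayes settings, a block on the replicate number, and leaving out each array. A planned comparison of protein sequences was not run. Figures were drawn with matplotlib 3.10.9.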

Additional observations from a re-analysis of the deposited data

How the results depend on the processing

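Fgfr2 and Fgfr3 kept their direction and their call under every alternative that gave a value, and Fgfr2 gave none without probe sets ending in _s_at, _x_at or _a_at. Fgfr1 lost its call only under that rule (-1.33, adjusted p = 0.109), and over the arrays left out its difference ranged from -2.68 to -2.22. No member was called higher under any of 18 alternatives, and between 3 and 5 were called lower. Centring on the median and scaling to the hybridisation controls gave 3527 and 3059 higher and 1191 and 943 lower genes, and 6 lower pathway genes each. Member probe sets called higher were 1 after centring, and those called lower 4 after scaling to the controls. Over the arrays left out, 1291 to 2453 genes were called higher, and the pathway counts ranged from 6 to 13 higher and from 6 to 11 lower. The sign of Spry2 turned after centring (0.53), after scaling to the controls (0.62) and with the mean of its probe sets (0.16), and ranged from -0.080 to 0.028 over the arrays left out. Dusp4 ranged from -0.25 to 1.42 and Fgfr2 relative to Fgfr3 from -0.14 to 0.18. Spry1 relative to Spry2 ranged from -1.08 to 0.42, but Spry1 was at or below background on 1 quiescent and 2 activated arrays. The causes were not tested. With the replicate block 1955 genes were called higher and 1979 lower, and 4 members lower. Deviations of same-numbered arrays correlated at 0.06, -0.02 and 0.03, and those of differently numbered arrays at -0.08 to 0.05. With 3 arrays per group such values cannot show whether same-numbered arrays shared animals or a sort. The block changed no member's call.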
